A study of Homo sapiens with 12 samples.

Results

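The genes described here drive and guard cell division: 53 genes of mitosis and of the kinesin and NEK kinase families, out of 8545 genes measured in 2 glioblastoma cell lines after knockdown of PARK2. They were chosen by symbol: numbered KIF kinesins, lettered CENP centromere genes, BUB1 and BUB3 relatives, AURK, PLK and NEK kinases, CDC genes numbered in the twenties, CCNA2, CCNB1, CCNB2, CDK1, TTK and MAD2L1. The brightest probe set gave a gene its value, and 24 of the 53 had several. By known role, 26 of them form the mitotic core, genes that act in mitosis and most of whose transcripts are known to be made late in the cell cycle. The other 27 members include transport kinesins, most NEK kinases, and AURKC, BUB3, CDC23, CDC25A, CDC25B, CENPB and CENPC, whose use or timing is known to be wider. KIF25-AS1, an antisense transcript next to KIF25, came in by its name alone.

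As background, a cell enters mitosis when CDK1 bound to cyclin A or cyclin B is switched on by CDC25 phosphatases, and Polo and Aurora kinases then build the spindle. Kinetochores, assembled on centromeres from CENP proteins, hold chromosomes to spindle microtubules, mitotic kinesins move or shorten those microtubules, and the BUB and MAD2 checkpoint proteins hold back CDC20 and the anaphase-promoting complex (APC/C) until every chromosome is attached. Transcripts of this machinery rise together late in the cell cycle through the DREAM, B-MYB and FOXM1 regulators, so their summed level in bulk RNA moves with the share of dividing cells. PARK2 encodes parkin, a ubiquitin ligase known for mitophagy, which has also been reported to bind CDC20 and its relative CDH1 and to mark mitotic proteins for destruction.

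SF539 and SNB19, each labelled a glioblastoma line, received PARK2 siRNA#1 (siRNA1), PARK2 siRNA#2 (siRNA2) or a scramble siRNA by lipid transfection and were harvested after 48 h. Each of the 6 groups had 2 arrays, 12 in all, measured on an Affymetrix expression array platform. PARK2 itself is not analysed here, so the depth of knockdown is not given. The labels do not say whether replicates came from separate cultures, and p-values then measure only the spread between these arrays, which may be technical.

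Values are on a log2 scale, with array medians of 5.94 to 6.14 and lower quartiles of 3.93 to 4.02, near which a probe set has little signal over background. KIF1A and KIF5A lay below the lower quartile in every group, and the other 51 members did not. The glioma markers VIM and CD44 were high in both lines, at group means of 12.06 or more, whereas GFAP, S100B and FABP7 stayed at group means of 3.95 or less in SF539, near or below background. In SNB19, GFAP averaged 10.50 with siRNA1 and 10.46 with siRNA2, against 6.90 with scramble. S100B averaged 8.27, 8.49 and 7.38 in that order, and FABP7 11.67, 12.12 and 10.56. SOX2 went the other way in SNB19, at 9.1 with each siRNA against 9.5 with scramble, and averaged 4.55 to 4.81 in SF539. SOX9 averaged 11.34 to 11.69 in SNB19 and 6.82 to 7.61 in SF539, and OLIG2 lay below the lower quartile in every group. Of the markers of other cell types, 3 of 4 leukocyte genes were measured, with group means of 2.76 to 4.61, and 2 of the 3 lay below the lower quartile in every group, CD3D being above it. The 3 epithelial genes had group means of 2.81 to 5.02, with KRT5 alone above the lower quartile, and the 3 endothelial genes 3.27 to 5.87, none of them below it in every group. The part of these markers in the members' changes was not tested. Replicates correlated across genes with r from 0.990, in SF539 with siRNA2, to 0.998. The median SD between replicates was 0.132 over all genes in SF539 with siRNA2, against 0.0616 to 0.0852 in the other 5 groups. Over the members it was 0.423 in SF539 with siRNA2, against 0.0469 to 0.0841 in the others.

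**Figure D1:**
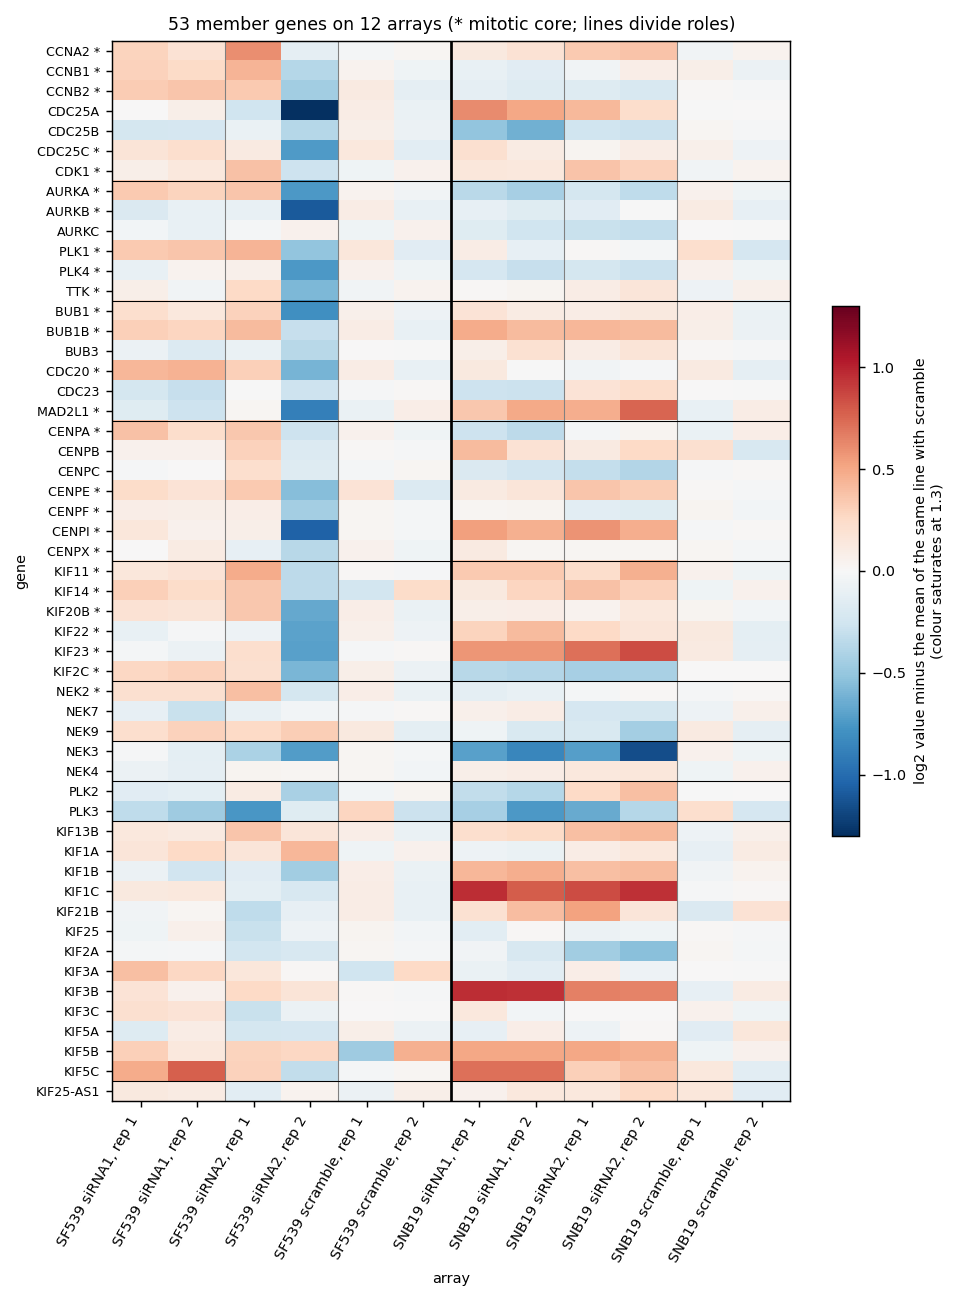
Log2 value of each of the 53 members (down the page, divided by role, with an asterisk for the mitotic core) on each of the 12 arrays (across), minus the mean of the 2 scramble arrays of the same line. Blue marks lower and red higher values, and the colour saturates at the ends of its scale. The column of SF539 siRNA2 replicate 2 is blue for all 26 core members, while replicate 1 of the same group is mostly red.

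The 2 SF539 arrays with siRNA2 stood apart from each other in their mitotic genes, and results that use them are given also without 1 or both of them. In replicate 2 all 26 core members were lower than in replicate 1, by a median log2 difference of -0.82 (range -1.13 to -0.25), whereas the median over all 8545 genes was -0.003. A difference of at least 0.5 downwards was reached by 25 of the 26 core members and by 28 of the 53 members, or 52.8%, against 5.62% of all genes. Among the 27 other members it was reached by 3, CDC25A, KIF5C and PLK2, and their median difference was -0.08. With 1 array on each side this difference has no test, and in bulk RNA fewer dividing cells and less transcript per cell cannot be told apart. In each of the other 5 groups no core member differed between replicates by 0.5 or more, up or down. The core and the other gene lists were drawn up with earlier results of these data known, so contrasts between them only describe.

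**Figure D2:**
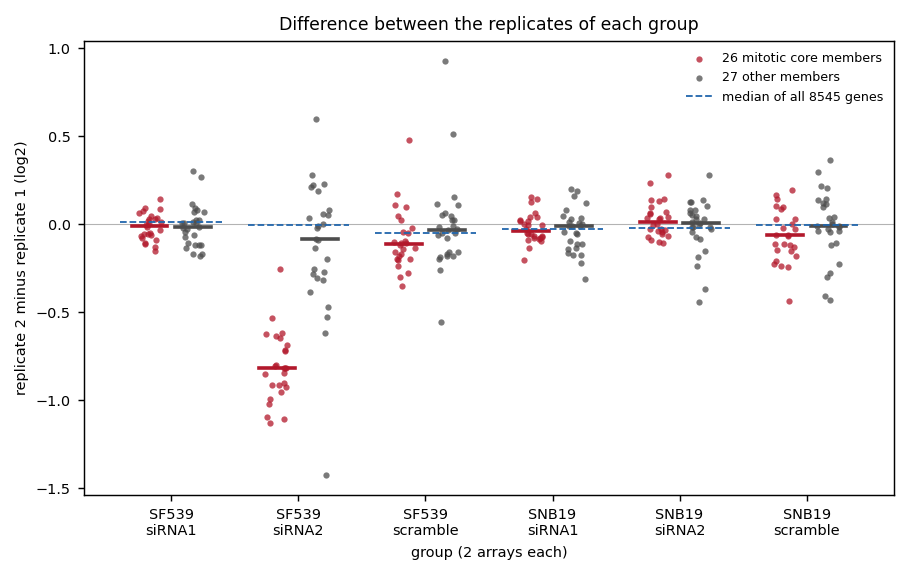
Log2 difference between replicate 2 and replicate 1 (vertical axis) in each of the 6 groups (horizontal axis), with 1 point per gene for the 26 core members in red and the 27 other members in grey. Solid bars are list medians and dashed lines the medians of all 8545 genes. The red points of SF539 with siRNA2 lie between -1.13 and -0.25. Those of the other 5 groups reach down to -0.43, in SNB19 with scramble, so the ranges overlap at CENPX.

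The CDK1 switch genes were low in replicate 2 throughout. CDC25A, the phosphatase that removes inhibitory phosphate from CDK2 and CDK1, read 6.29 in siRNA2 replicate 2 and 7.71 in replicate 1, 7.98 and 8.05 with siRNA1, and 7.88 and 8.06 with scramble. Its difference of -1.42 was the largest among members, and replicate 1 too lay below the other 4 SF539 arrays. A second CDC25A probe set, of lower signal at a mean of 5.02, differed by only -0.26. CCNB1, cyclin B1, read 10.86 in replicate 2 and 11.67 in replicate 1, 11.47 and 11.53 with siRNA1, and 11.18 and 11.28 with scramble. Replicate 2 was thus the lowest and replicate 1 the highest of the 6 arrays, on either side of scramble. CDK1 (difference -0.65) and CCNA2, cyclin A2 (-0.72), had the same order of arrays. CCNB2, cyclin B2 (-0.80), and CDC25C, the phosphatase of mitotic entry (-0.85), were lowest in replicate 2 but not highest in replicate 1. CDC25B, which starts CDK1 activation at centrosomes, differed by -0.28.

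Among the Polo, Aurora and TTK kinases, AURKA, which matures centrosomes, read 10.44 in replicate 2 and 11.55 in replicate 1, 11.48 and 11.53 with siRNA1, and 11.14 and 11.24 with scramble. AURKB, the kinase of the chromosomal passenger complex, read 7.42 in replicate 2 and 8.42 in replicate 1, 8.33 and 8.42 with siRNA1, and 8.42 and 8.62 with scramble. For AURKA replicate 1 was the highest of the 6 arrays, and for AURKB it lay among the others. PLK1, the main mitotic Polo kinase, differed by -0.95, TTK, the checkpoint kinase also called MPS1, by -0.85, and PLK4, which licenses centriole duplication, by -0.82. AURKC, an Aurora kinase known mainly from germ cells, differed by only 0.08, with replicate 2 the higher.

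The checkpoint genes split in the same way. BUB1, the kinetochore kinase of the checkpoint, read 8.07 in replicate 2 and 9.16 in replicate 1, 9.00 and 9.08 with siRNA1, and 8.80 and 8.93 with scramble. CDC20, the activator of the APC/C, read 10.32 in replicate 2 and 11.23 in replicate 1, 11.36 and 11.37 with siRNA1, and 10.82 and 11.02 with scramble. Replicate 2 was below every other SF539 array for both, and replicate 1 was above both scramble arrays. MAD2L1, the checkpoint protein MAD2 (difference -0.91), and BUB1B, the checkpoint protein BUBR1 (-0.71), were also lowest in replicate 2, whereas BUB3, which also works in interphase, and the APC/C subunit CDC23 differed by -0.27 and -0.26.

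All 7 centromere and kinetochore genes were lowest in replicate 2. CENPI, an inner kinetochore protein, read 7.33 in replicate 2 and 8.45 in replicate 1, 8.43 and 8.52 with siRNA1, and 8.35 and 8.40 with scramble. Here replicate 2 alone stood out, since the other 5 arrays lay within a narrow band. CENPE, the kinetochore kinesin, differed by -0.90, CENPA, the histone variant that marks centromeres, by -0.62, and CENPF by -0.53. The smallest differences were those of CENPB and CENPC, which bind centromeres throughout the cycle (-0.47 and -0.39), and of CENPX (-0.25), a histone-fold protein with a further role in DNA repair.

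All 6 mitotic kinesins were also lowest in replicate 2. KIF20B, a kinesin of cytokinesis, read 8.21 in replicate 2 and 9.23 in replicate 1, 9.05 and 9.06 with siRNA1, and 8.79 and 8.96 with scramble. KIF23, the motor of the central spindle, differed by -0.93, KIF11, which pushes spindle poles apart, by -0.82, KIF2C, a microtubule depolymerase at centromeres, by -0.81, KIF14 by -0.69 and KIF22, which binds chromosome arms, by -0.64. The 13 other kinesins, mostly carriers of vesicles and organelles, had a median difference of -0.02, and replicate 2 was the lowest of 6 arrays for 3 of them. Of the NEK kinases, NEK2, which separates centrosomes, differed by -0.62, and NEK7 and NEK9 by 0.06 each. The largest differences in the other direction were those of PLK3, a stress-responsive Polo kinase (0.60), KIF1A (0.28, near background), KIF21B (0.23), KIF25 (0.22) and KIF3C (0.21). Second probe sets of PLK3, KIF25 and KIF3C did not rise (-0.05, -0.01 and -0.27), and that of KIF1A did (0.14).

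Replicate 2 was the lowest of the 6 SF539 arrays for 26 of 26 core members and for 36 of the 53 members, against 29.3% of all genes. Replicate 1 was the highest for 16 of the 26, against 13.2% of all genes. Relative to the mean of the scramble arrays, the core median was -0.57 in replicate 2 and 0.33 in replicate 1, and over all genes it was -0.04 and -0.02. Other probe sets of the same genes mostly moved with them. Of the 18 core probe sets not used for the gene values, 16 were lower in replicate 2 (median -0.44), against 50.5% of all genes. Among the 14 of these above the lower quartile, 12 were lower. The exceptions were second probe sets of CDC25C (0.10) and KIF22 (0.12), of lower signal at means of 4.7 and 5.3. A list of 61 other mitosis genes, 37 of them measured, had a median difference of -0.81, and 31 were at least 0.5 lower. It held MKI67, the Ki-67 proliferation marker (-1.32), FOXM1 (-1.08) and MYBL2 (-0.54), which encode regulators of late cell cycle transcription, and WEE1, the kinase that holds CDK1 off (0.17). How far the state of the culture or the handling of 1 array shaped this difference was not tested.

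**Figure D3:**
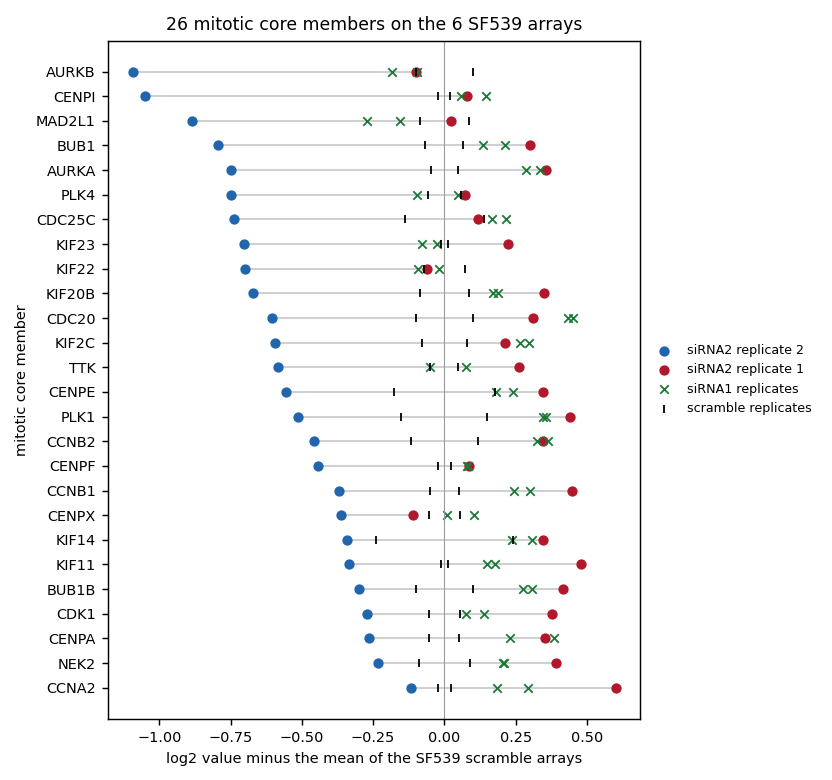
Log2 value of each of the 26 core members (down the page) on the 6 SF539 arrays, minus the mean of the 2 scramble arrays (horizontal axis). Blue circles are siRNA2 replicate 2, red circles siRNA2 replicate 1, green crosses the siRNA1 arrays and black ticks the scramble arrays. The blue circle is the leftmost mark for all 26 genes, and the red circle is the rightmost for 16.

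The promoters of the members were also read for letters tied to late cell cycle transcription. These were the cell cycle genes homology region (CHR), as TTTGAA or TTTAAA, and the CCAAT box bound by NF-Y. RefSeq promoter windows of assembly GRCh38.p14, 250 bases before to 50 after a gene start, were held for 46 of the 53 members and 24 of the 26 core members. AURKA, BUB3, KIF13B, KIF21B, KIF5A, NEK7 and TTK had no entry. The 100 bases before the start are shown for 6 core members, chosen for their place in entry, checkpoint and spindle. All 6 hold both CHR and CCAAT letters, which not all core members do. BUB1B and CENPA, not shown, hold CHR letters but no CCAAT letters in these 100 bases. The promoters shown are thus examples and do not stand for their lists. Also shown are the transport kinesins KIF1C and KIF3B, which hold no CHR letters. Each runs 5′ to 3′ on the gene's own strand, which is the plus strand for all 8, and capitals mark CHR letters (TTCAAA is TTTGAA on the other strand, and TTTAAA reads alike on both) and CCAAT letters (ATTGG on the other strand).
CCNB1, chr5:69167050-69167149: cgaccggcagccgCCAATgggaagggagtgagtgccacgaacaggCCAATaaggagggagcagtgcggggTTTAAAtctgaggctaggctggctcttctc
CCNB2, chr15:59105046-59105145: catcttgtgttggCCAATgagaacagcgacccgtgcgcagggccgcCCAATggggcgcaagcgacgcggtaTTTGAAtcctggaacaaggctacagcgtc
PLK1, chr16:23678789-23678888: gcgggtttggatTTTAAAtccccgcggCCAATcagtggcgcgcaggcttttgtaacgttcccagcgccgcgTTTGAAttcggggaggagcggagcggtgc
CDC20, chr1:43358881-43358980: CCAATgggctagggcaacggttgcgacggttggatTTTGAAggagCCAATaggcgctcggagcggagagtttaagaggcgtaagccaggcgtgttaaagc
KIF11, chr10:92593030-92593129: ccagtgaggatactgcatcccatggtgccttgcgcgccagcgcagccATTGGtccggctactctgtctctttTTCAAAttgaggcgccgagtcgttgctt
KIF23, chr15:69414249-69414348: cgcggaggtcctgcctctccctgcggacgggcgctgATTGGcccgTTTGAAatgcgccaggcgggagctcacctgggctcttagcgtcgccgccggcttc
KIF1C, chr17:4997850-4997949: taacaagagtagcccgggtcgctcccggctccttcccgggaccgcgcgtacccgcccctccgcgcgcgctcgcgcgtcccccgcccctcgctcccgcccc
KIF3B, chr20:32277551-32277650: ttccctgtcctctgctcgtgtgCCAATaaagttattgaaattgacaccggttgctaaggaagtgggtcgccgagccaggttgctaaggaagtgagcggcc

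CHR letters were present in 19 of the 32 windows of core members, or 59.4%, in 4 of the 31 windows of other members, or 12.9%, and in 24.0% of all 35116 windows. The CCAAT box was present in 71.9% of core windows, 38.7% of other member windows and 34.6% of all windows. Both occurred together in 46.9% of core windows and 9.27% of all windows. By gene, 13 of the 24 core members had both in at least 1 window. Of the 22 other members with a window, 4 had CHR letters, none of them shown above. The windows of the other mitosis genes held CHR letters in 74.3%. Within the core, the 17 genes with CHR letters had a median difference between the SF539 siRNA2 replicates of -0.82 and the 7 without them one of -0.72, with overlapping ranges. These matches describe letters in a window and say nothing of binding. Most core members are known late cell cycle genes, so a high share of these letters goes with how the list was drawn up. A link of the letters to the SF539 siRNA2 difference was not tested.

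The next comparison asked what PARK2 knockdown did to these genes in SNB19, as the mean of both siRNAs against scramble. By limma, 10 of the 53 members were called at an adjusted p under 0.05 over all genes, 6 higher and 4 lower, which is 18.9% of members against 32.8% of all genes. Of the 13 kinesins outside the core, 5 were called higher, among 15.5% of all genes, and 1 lower, KIF2A. Of the 26 core members 1 was called, KIF23. The median change was 0.05 over the members and -0.01 over all genes. With each array centred on its median, which moved the median of all genes up by 0.10, the calls were 11 higher and 3 lower. The share of all genes called in that centred fit is not given here.

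KIF1C, a carrier of vesicles and integrins, read 7.38 and 7.55 with siRNA1, 7.44 and 7.54 with siRNA2, and 6.57 and 6.61 with scramble, a log2 change of 0.89 ± 0.08 (SE, limma adjusted p = 3.46e-05). KIF3B, a subunit of the kinesin of cilia, read 9.35 and 9.36 with siRNA1, 9.05 and 9.06 with siRNA2, and 8.30 and 8.51 with scramble, a change of 0.80 ± 0.08 (SE, limma adjusted p = 4.59e-05). All 4 siRNA arrays were above both scramble arrays for each gene. A second KIF1C probe set, near background at a mean of 3.54, changed by -0.10.

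KIF23 read 9.36 on both siRNA1 arrays, 9.50 and 9.64 with siRNA2, and 8.68 and 8.90 with scramble, with no overlap, and rose by 0.68 ± 0.20 (SE, limma adjusted p = 0.0269). KIF5C, a heavy chain of conventional kinesin, rose by 0.53 ± 0.16 (adjusted p = 0.0286), KIF1B, a carrier of mitochondria and synaptic vesicle precursors, by 0.43 ± 0.10 (adjusted p = 0.00935) and KIF13B by 0.32 ± 0.09 (adjusted p = 0.0169). These gains held in all 4 siRNA arrays, but the calls of KIF23 and KIF5C mostly did not hold with 1 array fewer. A second KIF5C probe set, at a mean of 6.29, changed by 0.21. KIF23 lost its call without any 1 SNB19 array other than siRNA2 replicate 1 (adjusted p from 0.0589 to 0.178), and KIF5C without any 1 SNB19 array (0.0514 to 0.222). Without scramble replicate 1, KIF1B, KIF13B, CDC25B and KIF2A lost theirs (adjusted p = 0.0892, 0.159, 0.0557 and 0.0753).

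NEK3, a NEK kinase known from signalling to the cytoskeleton, read 5.21 and 5.35 with siRNA1, 4.90 and 5.35 with siRNA2, and 6.00 and 6.12 with scramble. It fell by 0.86 on the log2 scale (SE 0.13, limma adjusted p = 0.000741), and all 4 siRNA arrays were below both scramble arrays. CDC25B fell by 0.42 (SE 0.09, adjusted p = 0.00594). KIF2A, a microtubule depolymerase of spindle poles, fell by 0.31 (SE 0.07, adjusted p = 0.00857), but its 2 probe sets disagreed: the second, of lower signal, changed by 0.34, and the mean of both by 0.01. AURKC fell by 0.25 (SE 0.07, adjusted p = 0.0203) and lost its call with median centring (adjusted p = 0.14), with quantile normalization (0.0785), or without scramble replicate 1 or 2, siRNA1 replicate 2 or siRNA2 replicate 2 (from 0.0566 to 0.112).

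All 6 groups share 1 estimate of the spread, so the split between the SF539 siRNA2 arrays widens the standard errors of core members in SNB19 too. With both of those arrays left out, which was decided once the split had been seen, the median SE of this comparison was 0.072 over the core, against 0.18 with all 12 arrays, and over all genes 0.084 against 0.105. The changes themselves stayed as they were. The calls then numbered 23 of 53, 14 higher and 9 lower, with 41.6% of all genes called, and they included all 10 above. In the core 11 of 26 were called, 8 higher and 3 lower.

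Core genes that passed in SNB19 with the SF539 siRNA2 arrays left out, and not in the fit to all 12 arrays, ran both ways. MAD2L1 read 10.99 and 11.13 with siRNA1, 11.11 and 11.39 with siRNA2, and 10.54 and 10.74 with scramble (change 0.52, limma adjusted p = 0.00409, against 0.0864 with all arrays). BUB1B read 9.73 and 9.80 with siRNA1, 9.73 and 9.75 with siRNA2, and 9.24 and 9.40 with scramble (0.43, adjusted p = 0.00195, against 0.0677). AURKA read 10.38 and 10.46 with siRNA1, 10.48 and 10.59 with siRNA2, and 10.75 and 10.87 with scramble (-0.33, adjusted p = 0.00389, against 0.32). The siRNA and scramble arrays did not overlap for any of these 3.

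CCNA2 (0.25) and CDK1 (0.24) were called higher in this fit as well, along with CENPI (0.51), KIF11 (0.34) and KIF22 (0.28), and KIF2C (-0.40) and PLK4 (-0.26) lower. Outside the core, CDC25A (0.44) was added on the higher side, and PLK3 (-0.55) and CENPC (-0.28) on the lower. Other probe sets of PLK4 and PLK3, at mean values of 8.09 and 5.37, disagreed with those used and changed by 0.22 and 0.18. Another CCNA2 probe set, at a mean of 8.71, changed by -0.002, and one of CDC25A, at 5.02, by 0.10. Further CDK1 probe sets changed by 0.11 and 0.07. Those of CENPI (0.42), KIF22 (0.20) and KIF2C (-0.43) kept the direction. In neither fit did CCNB1 (-0.05), CCNB2 (-0.17), CDC20 (0.01), CDC25C (0.11), AURKB (-0.10), PLK1 (-0.01), TTK (0.08), BUB1 (0.13) or BUB3 (0.13) pass. CDC20 read 10.25 and 10.38 with siRNA1, 10.21 and 10.24 with siRNA2, and 10.14 and 10.38 with scramble, so the groups overlapped.

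**Figure D4:**
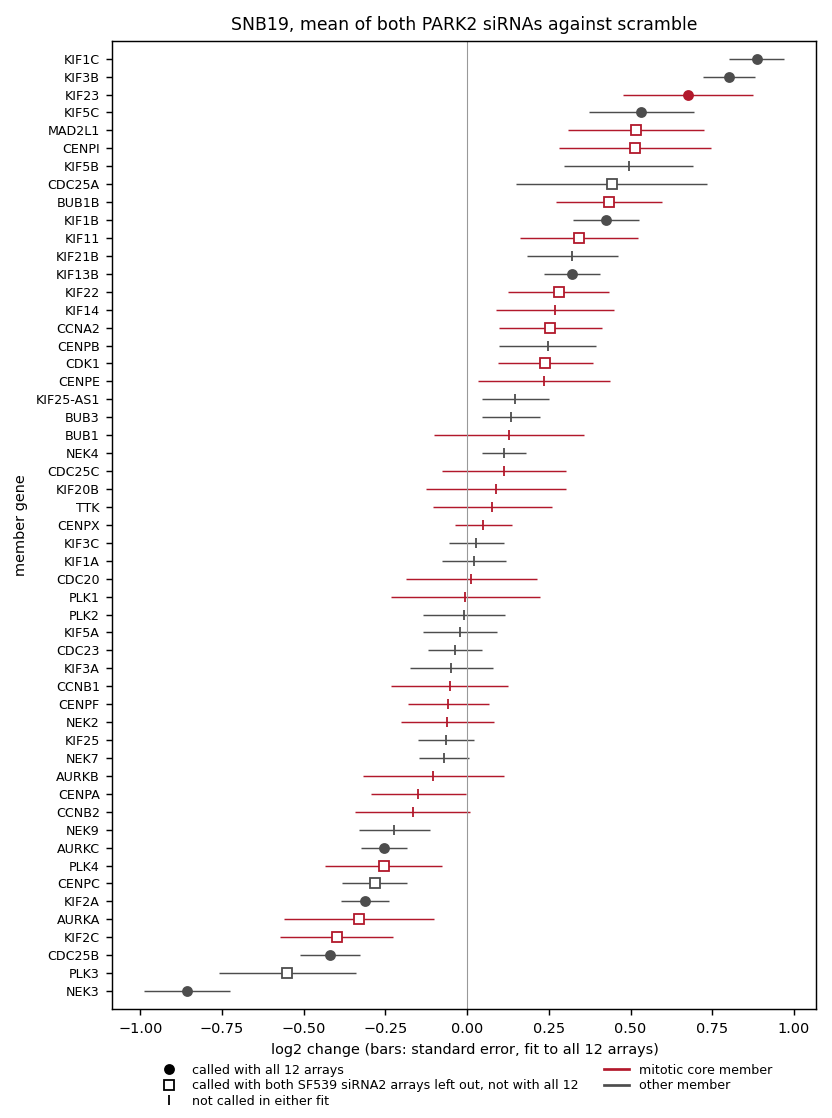
Log2 change of each of the 53 members (down the page, ordered by size) in SNB19, as the mean of both PARK2 siRNAs minus scramble (horizontal axis), with the standard error of the fit to all 12 arrays. Filled circles are the 10 members called in that fit, open squares the 13 not called in it but called with both SF539 siRNA2 arrays left out, and ticks the others. Red marks core members and grey the other members.

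Each siRNA was also set against scramble alone in SNB19. With siRNA1, 6 members were called, 4 higher (KIF3B by 0.95, KIF1C by 0.88, KIF5C by 0.71 and KIF1B by 0.45) and 2 lower (NEK3 by -0.78 and CDC25B by -0.57), with 26.1% of all genes called. With siRNA2, 9 were called, 5 higher (KIF1C by 0.90, KIF23 by 0.78, KIF3B by 0.65, KIF13B by 0.41 and KIF1B by 0.40) and 4 lower (NEK3 by -0.94, KIF2A by -0.50, CENPC by -0.35 and AURKC by -0.30), with 29.7% of all genes called. Both comparisons use the same scramble arrays. Without the SF539 siRNA2 arrays the counts were 21 for siRNA1 (35.8% of all genes) and 24 for siRNA2 (38.6%). Of the calls with all arrays, those of KIF5C and KIF1B with siRNA1, and of KIF23, KIF13B, KIF1B, CENPC and AURKC with siRNA2, were lost without 1 or another single array. With siRNA2, KIF2A also lost its call with the mean of its probe sets (-0.16, limma adjusted p = 0.186). CENPC lost its call with quantile normalization (0.0536), median centring (0.175) or the replicate block (0.0526), and AURKC with quantile normalization (0.0611) or median centring (0.131).

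Between the siRNAs in SNB19, siRNA2 against siRNA1, 3 members were called, with 6.06% of all genes. PLK2, a stress-responsive Polo kinase, read 11.31 and 11.44 with siRNA2 and 10.68 and 10.72 with siRNA1 (difference 0.67 ± 0.14, SE, limma adjusted p = 0.0251), with scramble in between at 11.04 and 11.05. CDC23 read 9.54 and 9.59 with siRNA2 and 9.09 and 9.10 with siRNA1 (0.47 ± 0.09, SE, adjusted p = 0.019), with scramble at 9.36 and 9.37. For both genes the siRNAs thus lay on opposite sides of scramble. KIF2A was lower with siRNA2 (-0.37 ± 0.08, SE, adjusted p = 0.0326). Each of the 3 lost its call when any 1 of these 4 arrays was left out (adjusted p from 0.0655 to 0.269). Without the SF539 siRNA2 arrays 6 were called, with 12.7% of all genes: these 3 and CDC25B, KIF3B and NEK7.

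In SF539 the same comparison, both siRNAs against scramble, called none of the 53 members by limma, with 9.82% of all genes called. At an unadjusted p under 0.05 there were 7, among 25.1% of all genes, and none of the 7 was in the core. The median change of the core was 0.05. What was found depended on which siRNA2 array was kept. Without replicate 1, 15 members were called lower, among 11.0% of all genes, and 1 higher, KIF1A, near background. Without replicate 2, 13 were called higher, among 9.37% of all genes, and none lower. Each of these fits assumes that a single siRNA2 array varies as arrays of the remaining groups do.

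KIF20B was called on both sides, at -0.25 without replicate 1 and 0.26 without replicate 2. Without replicate 1, CDC25A changed by -0.82 (limma adjusted p = 0.00038), AURKB by -0.62 (0.00243), MAD2L1 by -0.55 (0.00927), BUB1 by -0.31 (0.0227), CDC25B by -0.30 (0.0168), TTK by -0.29 (0.0257) and BUB3 by -0.24 (0.0325). Without replicate 2, CCNA2 changed by 0.42 (limma adjusted p = 0.00408), CDC20 by 0.38 (0.031), CCNB1 by 0.36 (0.0162), BUB1B by 0.35 (0.0225), CCNB2 by 0.34 (0.0213), AURKA by 0.33 (0.0165) and CDK1 by 0.24 (0.0421). With both replicates in the fit these 14 genes had changes from -0.47 (CDC25A) to 0.24 (CCNA2), with adjusted p of 0.156 or more. Over the same arrays, further CDK1 probe sets changed by -0.35 and -0.195, against 0.08 for the one used. A second CCNA2 probe set changed by -0.09. PLK1 (0.16) and CDC25C (-0.06) passed under none of the 3 settings.

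With siRNA1 alone, where the replicates were close, the SF539 core members had a median change of 0.19 and none of the 53 members was called, with 2.73% of all genes called and 4 members at an unadjusted p under 0.05, among 16.9% of all genes. With both siRNA2 arrays left out 6 were called, with 9.39% of all genes. CDC20 read 11.36 and 11.37 with siRNA1 and 10.82 and 11.02 with scramble, a change of 0.44 ± 0.10 (SE, limma adjusted p = 0.0325). KIF5C (0.63), CCNB2 (0.34), AURKA (0.31) and KIF2C (0.28) were higher too, and CDC23 was lower (-0.26). For CDC20, AURKA and CCNB2 both siRNA1 arrays were above both scramble arrays.

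With siRNA2 alone, NEK3 was the only SF539 member called with both arrays, with 15.2% of all genes called. It read 6.05 in replicate 2 and 6.37 in replicate 1, against 6.76 and 6.81 with scramble, a change of -0.57 ± 0.15 (SE, limma adjusted p = 0.032). It lost that call without scramble replicate 1 or 2 or without siRNA2 replicate 2 (adjusted p = 0.132, 0.0908 and 0.14), with array weights (0.277), with its probe sets averaged (0.256) and with SF539 arrays alone (0.0801). Without replicate 1, 27 members were called lower, among 15.5% of all genes, and without replicate 2, 9 were called higher, among 8.02%. Against siRNA1, siRNA2 gave no call in SF539 with both arrays, with 2.72% of all genes called and 10 members at an unadjusted p under 0.05, among 22.9% of all genes. Without replicate 1 it gave 31 calls, all lower and among 14.3% of all genes, and these held all 26 core members.

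In the list of other mitosis genes, 2 of the 37 rose with both siRNAs in SNB19 and none fell by the test, with 32.8% of all genes called: SMC4, a condensin subunit (0.45), and WEE1 (0.23). In SF539, 2 rose and none fell, with 9.82% of all genes called: the condensin subunit gene NCAPD2 (0.69) and WEE1 (0.46). Without the SF539 siRNA2 arrays the SNB19 count was 13 higher and 6 lower, with 41.6% of all genes called. In SF539 it was 2 higher and 17 lower without siRNA2 replicate 1 (23.1% of all genes), and 15 higher and 2 lower without replicate 2 (16.1%).

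The difference between lines in the effect of both siRNAs, SF539 minus SNB19, was called for 4 members, with 19.1% of all genes called. KIF1C changed by -0.02 in SF539 and 0.89 in SNB19, a difference of -0.90 ± 0.12 (SE, limma adjusted p = 0.000691). KIF1B (-0.66 ± 0.14, SE, adjusted p = 0.0106) and KIF3B (-0.64 ± 0.11, SE, adjusted p = 0.00362) also differed, and for all 3 the change was the higher one in SNB19. NEK9, the kinase that activates NEK7, differed by 0.50 ± 0.15 (SE, adjusted p = 0.0491), from a change of 0.27 in SF539 and -0.22 in SNB19, neither of which passed. It lost that call without 9 of the 12 arrays, each left out in turn. No core member was called. With median centring, which moved the median of all genes by -0.17, the calls were 0 higher and 8 lower, and the share of all genes called is not given. Without SF539 siRNA2 replicate 1 there were 19 calls (31.4% of all genes), 1 higher and 18 lower, and without replicate 2 there were 15 (27.4%), 8 higher and 7 lower.

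The lines also differed before any knockdown. With scramble, SF539 against SNB19, 32 of the 53 members were called, with 49.3% of all genes. Of these, 21 were higher in SF539, with 24.6% of all genes higher, and 11 lower, with 24.7% of all genes lower. With median centring, which moved the median of all genes by 0.17, the split was 27 higher and 6 lower, and the share of all genes is not given. Without the SF539 siRNA2 arrays the count was 39, with 54.9% of all genes called.

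KIF22 read 8.33 and 8.47 in SF539 against 6.82 and 7.06 in SNB19, a difference of 1.46 ± 0.18 (SE, limma adjusted p = 7.53e-05). NEK7, a mitotic kinase also needed for the NLRP3 inflammasome, was higher by 1.16 (adjusted p = 3.01e-06), KIF21B by 1.08, PLK1 by 0.90 and CENPE by 0.85. PLK1 read 7.03 and 7.33 in SF539 against 6.07 and 6.50 in SNB19, and its call and that of CENPE were lost without SNB19 scramble replicate 2 (adjusted p = 0.121 and 0.0539) or SF539 scramble replicate 1 (0.105 and 0.0908). The 2 groups did not overlap for KIF22, NEK7 or PLK1.

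The largest differences downwards lay outside the core. KIF5C read 6.03 and 6.08 in SF539 against 7.71 and 7.99 in SNB19 (-1.79 ± 0.18, SE, limma adjusted p = 2.33e-05). CENPC, the inner kinetochore scaffold, read 6.92 and 6.96 in SF539 against 8.35 and 8.39 in SNB19 (-1.43 ± 0.12, SE, adjusted p = 4.36e-06). KIF3C (-1.26), PLK2 (-1.20) and NEK4 (-0.65) followed, and the scramble arrays of the lines did not overlap for any of these 5. In the core 10 of 26 members were higher in SF539 and 3 lower, CCNA2 (-0.56), CENPA (-0.47) and CENPF (-0.62). CDK1 (-0.11), CCNB1 (0.14) and CDC25A (0.06) did not pass.

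**Figure D5:**
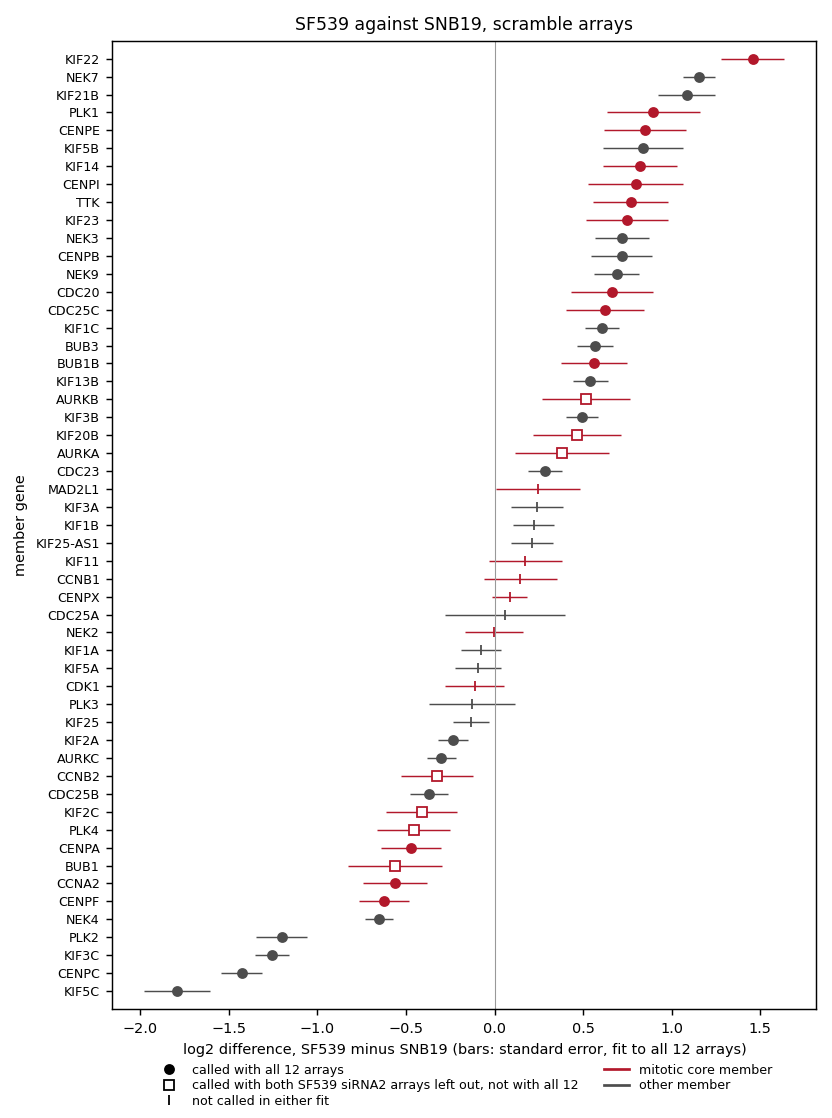
Log2 difference of each of the 53 members (down the page, ordered by size) between SF539 and SNB19 with scramble (horizontal axis, SF539 minus SNB19), with the standard error of the fit to all 12 arrays. Filled circles are the 32 members called in that fit, open squares the 7 not called in it but called with both SF539 siRNA2 arrays left out, and ticks the others. Red marks core members and grey the other members.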

How the data were processed

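Per the labels, total RNA of transfected cells was hybridised, 12 samples in all, to Affymetrix arrays. The authors deposited values on a log2 scale. Per the submitters' processing notes, Partek was used. How background was corrected, arrays normalized and probes summarised, and on which build, is not given in the sources used here. Values ran from 2.01 to 14.1 and carry no detection call. The number of arrays limits the precision.

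Of 16376 probe sets, 14038 named 1 gene, 792 several and 1546 none in the platform's gene table, and 14028 were matched through Entrez identifiers to RefSeq GRCh38.p14, which updated symbols. Probe sets with several genes were left out, 5 of them naming a member. The brightest probe set over all arrays stood for each of 8545 genes. Tests came from limma 3.58.1 in R 4.3.3: lmFit with 1 mean per group over all 12 arrays, then eBayes, leaving 6 residual degrees of freedom. They were two-sided, and p-values were adjusted by Benjamini-Hochberg over all genes and called below 0.05. The fit was tested on simulated data. Errors of changes are standard errors of the fit. Changes are log2 differences of group means.

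The members and lists, including the mitotic core, were chosen with earlier results of these data known. Genes named are 16 regulators of mitosis, the largest called changes of each comparison (12 up and 12 down for both siRNAs against scramble, 5 and 5 otherwise) and the 5 largest differences each way between the SF539 siRNA2 replicates. Other members and genes of the list of other mitosis genes were named after their values were seen. Alternatives were quantile normalization, median centring, leaving out the dimmest 40% of genes, the mean of probe sets, a replicate block, array weights, arrays of 1 line alone and leaving out each array. Leaving out both SF539 siRNA2 arrays was added after seeing the data. Arrays with the same replicate number did not deviate together (correlations from -0.18 to 0.109), so the numbers were not taken to pair the arrays.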

Additional observations from a re-analysis of the deposited data

Results flagged for a closer look

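In 4 members the effect of both PARK2 siRNAs against scramble differed between the lines by the test of the difference itself. The difference, SF539 minus SNB19, was -0.903 for KIF1C, -0.659 for KIF1B, -0.638 for KIF3B and 0.498 for NEK9. KIF1C and KIF3B kept their calls under every alternative run, including without each array. KIF1B lost its call without SNB19 scramble replicate 1 (limma adjusted p = 0.0564). NEK9 lost its call without 9 of the 12 arrays, each left out in turn (adjusted p up to 0.201), and with median centring (0.1), quantile normalization (0.0572), the mean of probe sets (0.22) or array weights (0.0698).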

How the results depend on the processing

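The number of members called moved with the arrays in the fit and with the way they were processed or weighted. Calls over all genes moved too. For both siRNAs in SNB19 they rose from 32.8% to 41.6% of all genes with both SF539 siRNA2 arrays left out. For most fits below this share is not given, so the counts are not results about the members alone. In SNB19, array weights, the 6 SNB19 arrays alone and leaving out both SF539 siRNA2 arrays gave 23, 26 and 23 calls for both siRNAs (10 as reported), 23, 23 and 21 for siRNA1 (6), 23, 26 and 24 for siRNA2 (9), and 6, 5 and 6 for siRNA2 against siRNA1 (3). In SF539, siRNA1 had 1 call with array weights and 6 with both siRNA2 arrays left out, against 0. SF539 siRNA2 had 3 with median centring, 2 with the mean of probe sets, and 0 with array weights or SF539 arrays alone, against 1. SF539 siRNA2 against siRNA1 had 1 without the dimmest genes, against 0. The difference between lines had 8 calls with median centring and 7 with array weights, against 4. Leaving out each array in turn gave 3 to 9 calls for SNB19, 4 to 5 for SNB19 siRNA1, 4 to 5 for SNB19 siRNA2, 0 each time for SNB19 siRNA2 against siRNA1, 0 to 16 for SF539, 0 to 2 for SF539 siRNA1, 0 to 28 for SF539 siRNA2, 0 to 31 for SF539 siRNA2 against siRNA1, 2 to 19 for the difference between lines and 20 to 21 for the lines with scramble. The cause of these moves was not tested. With the replicate block the counts were 11 for SNB19, 6 for SNB19 siRNA1, 8 for SNB19 siRNA2, 0 for SF539, 5 for the difference between lines and 32 for the lines with scramble, and CENPC with siRNA2 in SNB19 lost its call (adjusted p = 0.0526). The fall of KIF2A in SNB19 turned to 0.011 with the mean of its probe sets. For the 43 called results of named genes, 306 of 322 values under alternatives other than single arrays kept direction and call, 15 lost the call and 1 reversed, and without single arrays 151 of 224 kept it and 73 lost it, with no reversal. Signal over background limits KIF1A and KIF5A, and 2 arrays per group limit every comparison.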
